A study of Mus musculus with 28 samples.

Results

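The genes described here are the extracellular and cell-surface part of the Wnt pathway, taken by gene symbol: 19 Wnt ligands, 10 Frizzled receptors (Fzd1 to Fzd10), the coreceptors Lrp5 and Lrp6, 4 secreted Frizzled-related proteins (Sfrp1, Sfrp2, Sfrp4 and Sfrp5), 4 Dickkopf proteins (Dkk1 to Dkk4) and Wif1. These are 40 of the 25251 genes measured. RNA sequencing was done on 3 sorted populations of mouse bone marrow, to ask how niche cells that surround hematopoietic stem cells differ in mice with a mutant Flt3 receptor. Endothelial cells (ECs; CD45-Ter119-CD31+) and mesenchymal stromal cells (MSCs; CD45-Ter119-CD31-CD166-Sca1+) came from the cells that line bone, 100 cells per library, and mononuclear cells (MNCs) came from the marrow, 200 cells per library. The control mice were Flt3+/+ and the others were Flt3ITD/ITD, which carry an internal tandem duplication in both copies of Flt3 by knock-in. All mice were C57 BL6 and aged 8 to 10 wk. Each genotype had 5 EC, 5 MSC and 4 MNC libraries, 28 in all, and each library came from 1 mouse. Counts are given per gene, so that the mutant and the normal Flt3 transcript are not told apart.

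Wnt proteins are secreted lipid-modified signals that bind a Frizzled receptor together with Lrp5 or Lrp6. In the canonical branch this halts the destruction of β-catenin, which then acts with TCF and LEF factors on target genes; other branches steer cell polarity and calcium. Sfrp proteins and Wif1 bind Wnt proteins outside the cell, whereas Dkk1, Dkk2 and Dkk4 bind Lrp5 and Lrp6. Wnt signals drive bone formation by osteoblasts, and several of the inhibitors are made by bone cells and their precursors.

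Library depth ran from 6377013 to 33880743 counts. The endothelial list (10 genes, Cdh5 and Pecam1 among them) summed to 2297 to 3354 RPKM in ECs, against 5.43 to 25.6 in MSCs and 9.39 to 37.4 in MNCs. The mesenchymal list (10 genes, Pdgfra and Col1a1 among them) summed to 29170 to 33752 RPKM in MSCs, 3635 to 6353 in ECs and 84.7 to 194 in MNCs. All 10 were over 3 counts in every MSC library. In ECs only 4 were so in all Flt3+/+ libraries and 3 in all Flt3ITD/ITD libraries. The pan-leukocyte list (10 genes) summed to 6927 to 10788 RPKM in MNCs. Some libraries stood apart. Flt3ITD/ITD EC replicate 2 carried 635 RPKM of the leukocyte list and Flt3ITD/ITD MSC replicate 5 carried 344, the highest of their populations. Of the MNCs, the erythroid list (7 genes measured) ranged from 92.9 to 144737 RPKM in the Flt3+/+ libraries and from 2150 to 22247 in the Flt3ITD/ITD libraries.

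The 3 populations had different shares of the pathway. MSCs carried the secreted inhibitors, at a summed level of 1161 ± 476 RPKM (SD, n = 5) in Flt3+/+ and 710 ± 285 (n = 5) in Flt3ITD/ITD mice. ECs carried 4.03 ± 4.66 and 1.58 ± 0.657 RPKM of the same 9 genes, and MNCs 0.865 ± 0.492 (n = 4) and 0.812 ± 0.261 (n = 4). The Frizzled receptors were at similar sums in ECs (26.6 ± 12.0 and 24.4 ± 7.32 RPKM) and MSCs (27.5 ± 13.5 and 26.2 ± 8.13 RPKM), but led by different members. In MNCs they summed to 1.025 ± 0.846 and 1.11 ± 0.822 RPKM. The Wnt ligands summed to 22.1 ± 12.1 and 21.1 ± 7.81 RPKM in MSCs, 4.83 ± 2.96 and 3.58 ± 1.85 in ECs, and 1.58 ± 0.381 and 1.72 ± 0.448 in MNCs. RPKM scale reads by transcript length and by the reads of the library, so that levels of different genes can be set side by side. In sorted bulk samples, fewer cells of a type and less RNA per cell cannot be told apart.

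**Figure D1:**
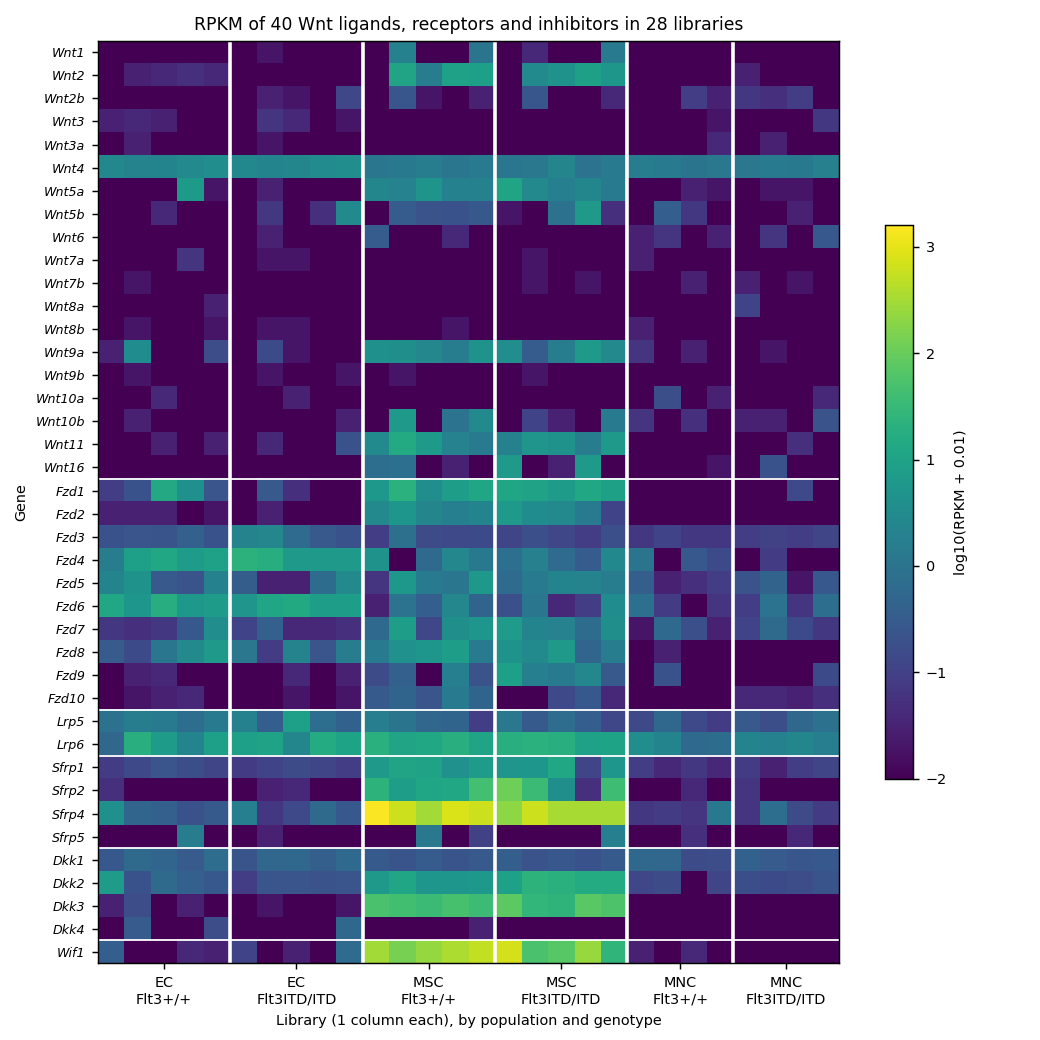
Level of each member (rows, by family) in each of the 28 libraries (columns, by population and genotype), with log10(RPKM + 0.01) on the color scale. Sfrp4, Wif1 and Dkk3 are bright in the MSC columns, Fzd6 and Fzd4 stand out in the EC columns, Wnt4 and Lrp6 are seen across all columns, and most rows are dark in the MNC columns.

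The populations were compared within each genotype, and a call needed both an adjusted p under 0.1 by edgeR's quasi-likelihood test and mean RPKM that differed 2-fold or more. In each fit 23 of the 40 genes passed the filter on low counts, which a gene can pass through the population where it is high. The comparisons of a genotype share libraries. In Flt3+/+ mice, 9 genes were lower in ECs than in MSCs (12.7% of all genes tested were) and 1 was higher (11.7%). Against MNCs, 14 were higher in ECs (20.2%) and 19 in MSCs (19.7%), and 0 were lower in either (16.8% and 16.2%). In Flt3ITD/ITD mice, 14 were lower in ECs than in MSCs (12.0%) and 3 higher (11.0%). Against MNCs, 7 were higher in ECs (17.9%) and 17 in MSCs (16.5%), with 0 lower (15.8% and 14.4%).

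For ECs against MNCs in Flt3+/+ mice the number called fell to 7 without MNC replicate 2, to 8 without MNC replicate 3 and to 7 without MNC replicate 4. In that comparison Fzd2 was called on at most 2 counts in an EC library, and Dkk3 on 12 counts in EC replicate 2 and at most 1 in the others. Called the same way in both genotypes were 8 genes lower in ECs than in MSCs (7.05% of all genes tested in both) and 1 higher (6.79%), 6 higher in ECs than in MNCs (14.4%), and 15 higher in MSCs than in MNCs (14.4%), with 0 lower in ECs (10.2%) or MSCs (10.6%) than in MNCs. Over the members tested, the median log2 fold change of MSCs against MNCs was 7.58 in Flt3+/+ and 6.90 in Flt3ITD/ITD mice, or 6.22 and 6.63 with genes at 0 in MNCs set to their bound, beside 0.05 and 0.06 over all genes. The median for ECs against MSCs was -2.14 and -6.45 (-5.99 with bounds), beside 0.06 and 0.01. That for ECs against MNCs was 2.74 and 1.78, beside 0.14 and 0.10. With bounds it was 2.34 and 1.07, leaving out 5 and 3 genes that had no bound. Members could pass the filter through the population where they are high, so these medians are no test against those of all genes.

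Wnt ligands are described first. In MSCs the ligands with calls in both genotypes were Wnt2, Wnt11, Wnt5a and Wnt9a, whereas ECs and MNCs mainly had Wnt4. Of the 19 ligands, 6 (Wnt3a, Wnt7a, Wnt7b, Wnt8a, Wnt8b and Wnt9b) were over 3 counts in no library. The remaining low ligands, Wnt2b, Wnt3, Wnt6 and Wnt10a, reached at most 0.24, 0.06, 0.31 and 0.17 RPKM.

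Wnt4 (chr4:137277489-137299726, GRCm38, plus strand), a ligand of the noncanonical and canonical branches, was over 3 counts in every library. The Flt3+/+ EC replicates 1 to 5 measured 2.72, 2.09, 2.21, 2.73 and 3.59 RPKM and the Flt3ITD/ITD replicates 2.63, 2.25, 2.44, 3.22 and 3.60. The MNC libraries measured 1.61, 1.45, 0.99 and 1.17 RPKM in Flt3+/+ and 1.13, 1.42, 1.28 and 1.79 in Flt3ITD/ITD mice. The lowest EC library lay above the highest MNC library, while the MSC libraries, at 0.95 to 2.36 RPKM, overlapped both. For ECs against MNCs the log2 fold change was 0.89 ± 0.41 (SE; adjusted p = 0.117) in Flt3+/+ and 1.06 ± 0.44 (adjusted p = 0.0899) in Flt3ITD/ITD mice, of which the second was called, though not without the filter on low counts (adjusted p = 0.184). Wnt4 made up 70.5% ± 34.4 (SD) of the summed ligand RPKM in Flt3+/+ ECs, 86.6% ± 19.9 in Flt3ITD/ITD ECs, and 83.5% ± 9.20 and 82.4% ± 5.22 in the MNCs. It was not the leading ligand in Flt3+/+ EC replicate 2, where Wnt9a was at 3.34 RPKM, or in replicate 4, where Wnt5a was at 6.82 RPKM.

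Wnt2, a canonical ligand, had the highest mean RPKM of the ligands in the MSCs of both genotypes. It was the top ligand in 2 of 5 Flt3+/+ and 1 of 5 Flt3ITD/ITD MSC libraries, and Wnt11 was in 2 and 3. Flt3+/+ MSC replicates 1 to 5 measured 0, 10.73, 1.58, 9.37 and 8.56 RPKM and Flt3ITD/ITD replicates 0, 2.92, 4.60, 9.07 and 5.73. Replicate 1 of each genotype had no Wnt2 count, so that the MSC range reached down to that of ECs, which stayed at or under 0.04 RPKM, and MNCs, at or under 0.02. In Flt3+/+ mice the log2 fold change of ECs against MSCs was -8.00 ± 1.57 (adjusted p = 0.00438). In Flt3ITD/ITD mice all 5 EC libraries were at 0 counts, and the MSC mean was at least 45.8-fold higher than a floor of 3 counts per library (adjusted p = 0.00596). Against MNCs, all at 0 in Flt3+/+ mice, it was at least 77.1-fold higher (adjusted p = 0.00178).

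Wnt11 (chr7:98835112-98855195, plus strand), a mostly noncanonical ligand, was separated between MSCs and the other populations. Flt3+/+ MSC replicates 1 to 5 measured 2.96, 15.03, 6.22, 2.03 and 1.43 RPKM and Flt3ITD/ITD replicates 1.91, 5.02, 4.73, 1.61 and 6.12. Every MSC library lay above the EC libraries, of which the highest was Flt3ITD/ITD replicate 5 at 0.19 RPKM, and above the MNC libraries, at most 0.04. Set against MSCs, ECs had a log2 fold change of -6.48 ± 1.40 (adjusted p = 0.00589) in Flt3ITD/ITD mice. In Flt3+/+ ECs there were 3 counts in all, and the ratio of MSCs to ECs was 612 (95% counting interval 209 to 2968; adjusted p = 0.000516). The intervals and floors given here cover counting error only. Part of the Wnt11 exons (364 bases) overlaps Gm8398 on the opposite strand, and the counting did not use strand.

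Wnt5a, the best known noncanonical ligand, and Wnt9a were in every MSC library. Wnt5a measured 2.41, 1.97, 4.85, 1.90 and 1.88 RPKM in Flt3+/+ MSC replicates 1 to 5 and 10.94, 2.79, 1.75, 2.38 and 1.29 in the Flt3ITD/ITD replicates. Wnt9a measured 4.15, 3.80, 2.56, 1.59 and 4.63 RPKM in the former and 3.53, 0.31, 1.52, 6.19 and 2.80 in the latter. All lay above the MNC libraries, at most 0.02 RPKM for Wnt5a and 0.05 for Wnt9a. MNCs had 2 counts of Wnt5a in each genotype, giving ratios of 370 (102 to 3055; adjusted p = 0.0286) in Flt3+/+ and 629 (174 to 5191; adjusted p = 0.000318) in Flt3ITD/ITD mice. For Wnt9a the log2 fold change was 7.58 ± 2.16 (adjusted p = 0.0151) in Flt3+/+ mice, and in Flt3ITD/ITD mice, with 1 count in MNCs, the ratio was 783 (140 to 30914; adjusted p = 0.00219). ECs overlapped MSCs in Flt3+/+ mice through the single high libraries named above, and neither gene was called there (adjusted p = 0.657 for Wnt5a and 0.308 for Wnt9a). In Flt3ITD/ITD mice, where ECs reached 0.02 and 0.14 RPKM, both were called lower in ECs (adjusted p = 0.000236 and 0.00790).

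Other ligands appeared in some MSC libraries and not in others. Wnt16 was at 0.73 and 0.80 RPKM in Flt3+/+ MSC replicates 1 and 2 and at 6.48 and 6.10 in Flt3ITD/ITD replicates 1 and 4, with at most 0.02 in the other MSCs and 0 in all 10 EC libraries. Wnt10b, which favors bone over fat formation, was at 6.60, 0.93 and 3.11 RPKM in Flt3+/+ MSC replicates 2, 4 and 5 and at 1.45 in Flt3ITD/ITD replicate 5. Wnt5b was at 0.91 and 6.47 RPKM in Flt3ITD/ITD MSC replicates 3 and 4 and at 2.9 in Flt3ITD/ITD EC replicate 5, with at most 0.35 in any other library. Wnt1 was over 3 counts in 3 libraries, with 1.90 and 0.97 RPKM in Flt3+/+ MSC replicates 2 and 5 and 1.29 in Flt3ITD/ITD MSC replicate 5.

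**Figure D2:**
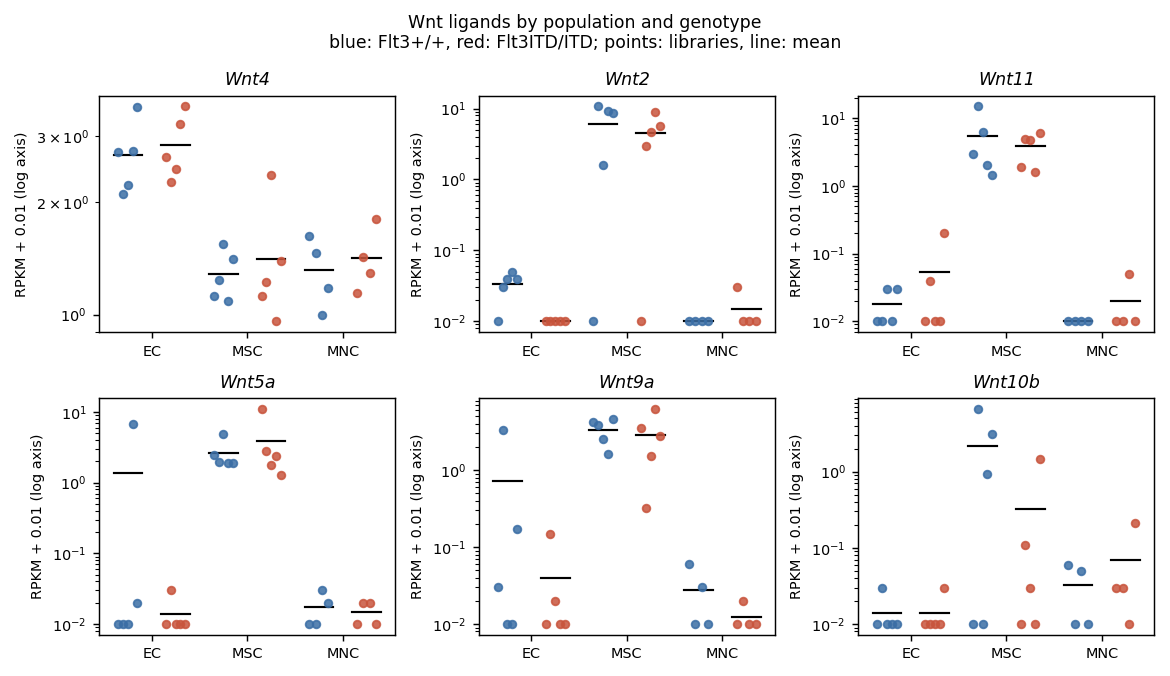
Levels of Wnt4, Wnt2, Wnt11, Wnt5a, Wnt9a and Wnt10b, as RPKM + 0.01 on a log axis, by population (horizontal axis) and genotype (blue, Flt3+/+; red, Flt3ITD/ITD). Points are libraries and lines are group means; Wnt4 is present in every library, whereas the others are near 0 outside MSCs except in EC libraries such as Flt3+/+ replicate 4 for Wnt5a (6.82 RPKM).

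The leading Frizzled receptors differed between ECs and MSCs, though only Fzd6 and Fzd2 were called between these populations in both genotypes. Fzd6 and Fzd4 led in ECs, Fzd1 in MSCs with Fzd8, Fzd7 and Fzd2, and no Frizzled receptor exceeded 1.0 RPKM in an MNC library.

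Fzd6 (chr15:39006034-39038188, plus strand), a receptor with a role in cell polarity, measured 12.66, 5.28, 17.40, 5.87 and 7.51 RPKM in Flt3+/+ EC replicates 1 to 5 and 5.11, 11.83, 14.69, 7.74 and 8.36 in the Flt3ITD/ITD replicates. The MSC libraries lay between 0.02 and 3.30 RPKM and the MNC libraries between 0 and 0.93, all under the lowest EC library. The log2 fold change of ECs against MSCs was 3.32 ± 1.18 (adjusted p = 0.0630) in Flt3+/+ and 3.23 ± 1.18 (adjusted p = 0.0759) in Flt3ITD/ITD mice. Against MNCs it was 5.39 ± 1.44 (adjusted p = 0.0107) and 4.53 ± 1.38 (adjusted p = 0.0253). The call against MSCs was lost, at adjusted p between 0.104 and 0.135, without Flt3+/+ EC replicate 3 or MSC replicates 2, 3 or 5, and without Flt3ITD/ITD EC replicates 2 or 3 or MSC replicates 1, 2, 3 or 4. Of its exons, 152 bases overlap Gm26704 on the opposite strand.

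Fzd4 (chr7:89404355-89413134, plus strand), the receptor of Norrin as well as of Wnt proteins in blood vessels, measured 1.57, 8.70, 13.15, 7.23 and 9.45 RPKM in Flt3+/+ EC replicates 1 to 5 and 21.84, 17.45, 6.46, 6.33 and 6.58 in the Flt3ITD/ITD replicates. MNC libraries measured at most 1.0 RPKM (Flt3+/+ replicate 1), under every EC library, and 4 of 8 had no count. MSC libraries, at 0 to 4.71 RPKM, overlapped ECs through Flt3+/+ EC replicate 1. For ECs against MNCs the log2 fold change was 4.43 ± 1.57 (adjusted p = 0.0454) in Flt3+/+ and 9.34 ± 1.40 (adjusted p = 0.000270) in Flt3ITD/ITD mice, and the first call was lost without Flt3+/+ MNC replicates 3 or 4 (adjusted p 0.106 and 0.113). Against MSCs it was 1.98 ± 1.28 (adjusted p = 0.319) and 3.05 ± 0.93 (adjusted p = 0.0375).

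Fzd1 and Fzd2, both able to signal through β-catenin, were highest in MSCs. Fzd1 measured 5.95, 21.34, 3.46, 7.83 and 11.47 RPKM in Flt3+/+ MSC replicates 1 to 5 and 11.82, 10.13, 7.0, 12.46 and 8.95 in the Flt3ITD/ITD replicates. In ECs it measured 0.08, 0.19, 14.03, 4.04 and 0.22 RPKM in Flt3+/+ and 0, 0.27, 0.04, 0 and 0 in Flt3ITD/ITD mice. Flt3+/+ EC replicates 3 and 4 thus lay within the MSC range and the other 8 EC libraries under it. MSCs were at least 268-fold above MNCs in Flt3+/+ mice, where all MNCs were at 0 counts (adjusted p = 0.00208), and the log2 fold change was 8.43 ± 1.94 (adjusted p = 0.00489) in Flt3ITD/ITD mice. Set against MSCs, ECs had a log2 fold change of -1.56 ± 1.25 (adjusted p = 0.436) in Flt3+/+ and -7.34 ± 1.65 (adjusted p = 0.00751) in Flt3ITD/ITD mice.

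Fzd2 was at lower levels and was found almost only in MSCs. It measured 2.79, 5.40, 2.36, 1.72 and 2.23 RPKM in Flt3+/+ MSC replicates 1 to 5 and 6.14, 3.36, 2.79, 1.34 and 0.10 in the Flt3ITD/ITD replicates. The last of these libraries had the highest leukocyte sum of the MSCs (344 RPKM). It also had their lowest depth (10674182 counts) and lowest bone-forming sum (1377 RPKM), and the part of these in its Fzd2 level was not tested. EC libraries reached 0.02 RPKM and all 8 MNC libraries were at 0 counts, so that every MSC library lay above both. The log2 fold change of ECs against MSCs was -7.67 ± 0.86 (adjusted p = 0.000104) in Flt3+/+ mice, and with 2 counts in Flt3ITD/ITD ECs the ratio of MSCs to ECs was 780 (216 to 6439.8; adjusted p = 0.00210). MSCs were at least 63.9-fold and 63.5-fold above MNCs (adjusted p = 3.58e-05 and 0.00115).

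Fzd8 was shared by ECs and MSCs. It measured 0.30, 0.14, 1.10, 3.14 and 6.39 RPKM in Flt3+/+ EC replicates 1 to 5 and 1.16, 0.07, 2.09, 0.22 and 1.5 in the Flt3ITD/ITD replicates. MSCs measured 1.42, 4.35, 5.46, 7.84 and 1.44 RPKM in Flt3+/+ and 4.79, 3.02, 6.35, 0.49 and 1.52 in Flt3ITD/ITD mice. The 2 populations overlapped, and both lay above the MNCs, which had 1 count in all 8 libraries. In Flt3ITD/ITD mice ECs were at least 21.5-fold and MSCs at least 69.0-fold above MNCs (adjusted p = 0.00163 and 0.000655), and in Flt3+/+ mice, with that 1 count, the ratios were 534 (95.8 to 21080; adjusted p = 0.000811) and 989 (177 to 39057; adjusted p = 0.000388).

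Fzd7 and Fzd3 had calls in both genotypes as well. Fzd7 measured 0.60, 7.94, 0.12, 3.97 and 5.31 RPKM in Flt3+/+ MSC replicates 1 to 5 and 7.30, 2.25, 1.98, 0.67 and 3.83 in the Flt3ITD/ITD replicates, against 0.01 to 0.61 in MNCs. Flt3+/+ MSC replicates 1 and 3 lay within the MNC range. Its log2 fold change of MSCs against MNCs was 4.25 ± 1.77 (adjusted p = 0.0853) in Flt3+/+ and 4.05 ± 1.13 (adjusted p = 0.0159) in Flt3ITD/ITD mice. The first call was lost, at adjusted p between 0.113 and 0.179, without Flt3+/+ MSC replicates 2, 4 or 5 or MNC replicates 1, 3 or 4.

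Fzd3, a receptor of the polarity branch that guides axons, was over 3 counts in every library but at low levels. In ECs it measured 0.19, 0.22, 0.21, 0.38 and 0.19 RPKM in Flt3+/+ and 2.10, 2.58, 0.66, 0.27 and 0.19 in Flt3ITD/ITD mice, and in MNCs 0.06 to 0.11, under every EC library. For ECs against MNCs the log2 fold change was 1.60 ± 0.70 (adjusted p = 0.0990) and 3.78 ± 0.84 (adjusted p = 0.00417). The first call was lost, at adjusted p between 0.102 and 0.195, without Flt3+/+ EC replicates 2, 3 or 4, MSC replicates 3 or 5, or any of the 4 MNC replicates.

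The remaining Frizzled receptors varied among libraries of a group. Fzd5 reached 5.87 and 5.92 RPKM in Flt3+/+ MSC replicates 2 and 5 and 4.37 in Flt3+/+ EC replicate 2, and was at 0.02 in Flt3ITD/ITD EC replicates 2 and 3; 1233 of its exonic bases overlap Gm38058 on the opposite strand. Fzd9 was at 8.64 RPKM in Flt3ITD/ITD MSC replicate 1, with 0 to 2.55 in the other MSCs and at most 0.03 in ECs. Fzd10 was highest in Flt3+/+ MSC replicate 4 at 1.35 RPKM.

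The coreceptors were found in every library, with Lrp6 above Lrp5 in all but Flt3+/+ EC replicate 1 and Flt3ITD/ITD EC replicate 3. Lrp6 measured 19.86, 10.85, 12.43, 18.84 and 10.75 RPKM in Flt3+/+ MSC replicates 1 to 5 and 18.02, 21.22, 18.47, 9.28 and 10.56 in the Flt3ITD/ITD replicates. In ECs it measured 0.51, 18.18, 7.45, 2.18 and 8.69 RPKM in Flt3+/+ and 8.58, 10.04, 2.45, 15.47 and 10.57 in Flt3ITD/ITD mice. MNCs measured 3.45, 2.18, 0.59 and 0.69 RPKM in Flt3+/+ and 2.25, 1.90, 2.41 and 1.64 in Flt3ITD/ITD mice. Every MSC library lay above every MNC library, whereas Flt3+/+ EC replicates 1 and 4 and Flt3ITD/ITD EC replicate 3 lay under the highest MNC library. Set against MNCs, MSCs had a log2 fold change of 3.17 ± 0.85 (adjusted p = 0.0104) in Flt3+/+ and 3.19 ± 0.47 (adjusted p = 0.000193) in Flt3ITD/ITD mice. That of ECs against MNCs was 2.08 ± 0.80 (adjusted p = 0.0640) and 2.24 ± 0.45 (adjusted p = 0.00210), and the first call was lost, at adjusted p between 0.107 and 0.159, without Flt3+/+ EC replicate 2 or MNC replicates 2, 3 or 4.

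Lrp5, whose loss lowers bone mass, was at 0.86, 1.55, 1.44, 0.75 and 1.33 RPKM in Flt3+/+ EC replicates 1 to 5 and at 1.89, 0.35, 8.58, 0.75 and 0.41 in the Flt3ITD/ITD replicates. MNCs measured 0.13, 0.56, 0.13 and 0.07 RPKM in Flt3+/+ and 0.27, 0.17, 0.57 and 0.91 in Flt3ITD/ITD mice. The ranges were apart in Flt3+/+ mice and overlapped in Flt3ITD/ITD mice. The log2 fold change of ECs against MNCs was 2.61 ± 0.84 (adjusted p = 0.0292) and 2.57 ± 1.07 (adjusted p = 0.0883). Without Flt3ITD/ITD EC replicate 3 the second was 0.96 (adjusted p = 0.407), and it was also lost, at adjusted p from 0.109, without Flt3ITD/ITD MSC replicates 2 or 3 or any of the 4 MNC replicates. MSCs, at 0.08 to 1.69 RPKM, overlapped both other populations.

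**Figure D3:**
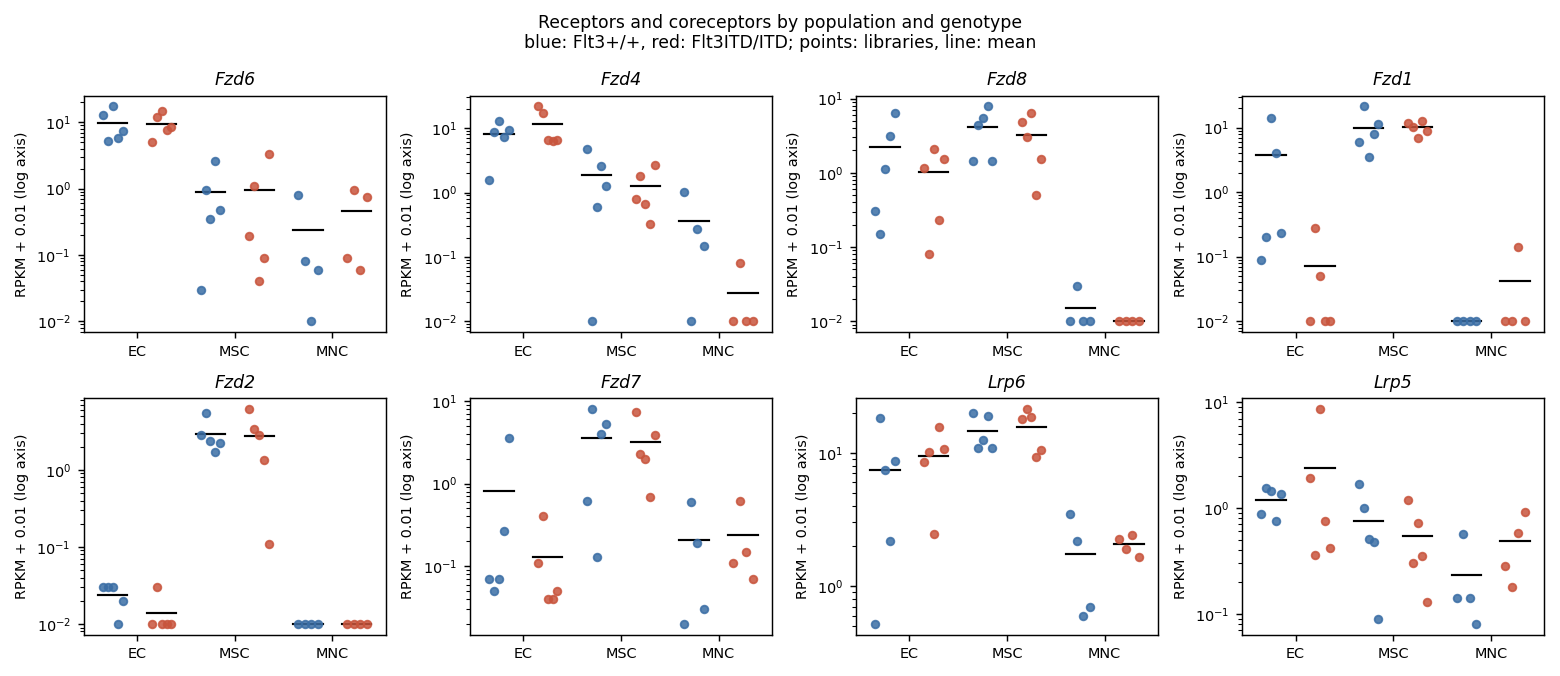
Levels of 6 Frizzled receptors, Lrp6 and Lrp5, as RPKM + 0.01 on a log axis, by population (horizontal axis) and genotype (blue, Flt3+/+; red, Flt3ITD/ITD). Points are libraries and lines are group means; all Fzd6 points of ECs lie above those of MSCs and MNCs, Fzd2 is near 0 outside MSCs, and Fzd1 is high in 2 of 10 EC libraries.

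The secreted inhibitors were far higher in MSCs than in the other populations. Of the 9 genes, Sfrp4, Wif1, Dkk3, Sfrp2 and Sfrp1 were lower in ECs than in MSCs in both genotypes, and these 5 and Dkk2 were higher in MSCs than in MNCs in both. Per library, the ratio of summed inhibitor RPKM to summed Wnt ligand RPKM had a median of 57.1 (19.5 to 158) in Flt3+/+ MSCs and 29.3 (20.3 to 61.5) in Flt3ITD/ITD MSCs. It was 0.406 (0.275 to 4.47) and 0.399 (0.347 to 0.833) in ECs, and 0.414 (0.293 to 1.19) and 0.503 (0.278 to 0.682) in MNCs. The MSC libraries also carried the bone-forming list (8 genes, Runx2, Sp7 and Ibsp among them; 1377 to 9209 RPKM) and the cartilage list (6 genes; 362 to 1175 RPKM), and the part of these cells in the inhibitor levels was not tested.

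Sfrp4 (chr13:19623104-19632994, plus strand), which binds Wnt proteins and whose loss thins cortical bone, was the most abundant of the 40 genes. Flt3+/+ MSC replicates 1 to 5 measured 1461, 624.5, 303, 808 and 644 RPKM and Flt3ITD/ITD replicates 209, 634, 335, 326 and 332. It made up 63.9% ± 13.4 and 58.0% ± 25.3 (SD) of the inhibitor sum in MSCs. EC libraries lay between 0.06 and 4.08 RPKM and MNC libraries between 0.05 and 1.24, far under every MSC library. For ECs against MSCs the log2 fold change was -9.49 ± 1.25 (adjusted p = 0.000108) in Flt3+/+ and -9.49 ± 0.99 (adjusted p = 1.83e-05) in Flt3ITD/ITD mice, and that of MSCs against MNCs was 10.44 ± 1.44 (adjusted p = 8.81e-05) and 10.38 ± 1.14 (adjusted p = 1.78e-05).

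Wif1 (chr10:121033960-121100650, plus strand), Wnt inhibitory factor 1, measured 300, 137, 239, 367 and 533 RPKM in Flt3+/+ MSC replicates 1 to 5 and 748, 52.1, 69.7, 250.35 and 25.7 in the Flt3ITD/ITD replicates. The Flt3ITD/ITD libraries held both the highest and the 3 lowest values. Flt3ITD/ITD replicate 1 was the only MSC library in which Wif1 exceeded Sfrp4. ECs reached 0.66 RPKM and MNCs 0.03, under every MSC library. Set against MSCs, ECs had a log2 fold change of -12.28 ± 1.07 (adjusted p = 2.55e-06) and -10.76 ± 1.73 (adjusted p = 0.00166). MNCs had 2 counts in Flt3+/+ mice, a ratio of 19544 (5410 to 161378; adjusted p = 2.38e-06), and 0 in Flt3ITD/ITD mice, where MSCs were at least 2714-fold higher (adjusted p = 0.000710).

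Dkk3 (chr7:112116017-112159057, minus strand), a divergent Dickkopf protein, was the most even of the high inhibitors. It measured 51.5, 41.6, 35.8, 49.0 and 37.5 RPKM in Flt3+/+ MSC replicates 1 to 5 and 78.6, 27.9, 24.4, 72.9 and 56.1 in the Flt3ITD/ITD replicates. ECs reached 0.16 RPKM, in Flt3+/+ replicate 2, and all 8 MNC libraries had no count. The log2 fold change of ECs against MSCs was -9.96 ± 1.07 (adjusted p = 7.67e-05) in Flt3+/+ mice, and with 2 counts in Flt3ITD/ITD ECs the ratio of MSCs to ECs was 11215 (3105 to 92605.5; adjusted p = 2.14e-06). MSCs were at least 787-fold and 997-fold above MNCs (adjusted p = 3.92e-05 and 1.90e-06).

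Sfrp2 and Sfrp1 differed more between MSC libraries. Sfrp2 (chr3:83766321-83774316, plus strand) measured 22.9, 7.89, 11.9, 13.0 and 43.8 RPKM in Flt3+/+ MSC replicates 1 to 5 and 112, 34.5, 3.85, 0.04 and 39.1 in the Flt3ITD/ITD replicates. Sfrp1 measured 6.14, 10.87, 9.80, 4.30 and 7.10 RPKM in the former and 5.26, 5.30, 13.09, 0.11 and 5.49 in the latter. Flt3ITD/ITD MSC replicate 4 was at the level of ECs for both genes, at 0.04 and 0.11 RPKM, although its Sfrp4, Wif1 and Dkk3 were within the range of the other MSCs. ECs reached 0.04 RPKM of Sfrp2 and 0.23 of Sfrp1, and MNCs 0.05 and 0.11.

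The ratio of MSCs to ECs for Sfrp2 was 2735 (491 to 108035; 1 count in ECs; adjusted p = 1.64e-05) in Flt3+/+ and 3775 (1292 to 18304; 3 counts; adjusted p = 0.000926) in Flt3ITD/ITD mice. The ratio to MNCs was 2298 (412 to 90760.0; 1 count; adjusted p = 2.70e-05) and 2889 (800 to 23855; 2 counts; adjusted p = 0.00102). The log2 fold change of Sfrp1 in ECs against MSCs was -5.93 ± 0.59 (adjusted p = 8.44e-06) and -5.99 ± 0.97 (adjusted p = 0.000779), and in MSCs against MNCs 7.26 ± 0.70 (adjusted p = 3.36e-06) and 6.63 ± 1.11 (adjusted p = 0.000515). Of the Sfrp2 exons, 347 bases overlap Gm26771 on the opposite strand.

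Dkk2 (chr3:132085292-132180304, plus strand), which binds Lrp5 and Lrp6, measured 6.55, 11.27, 5.45, 5.31 and 5.79 RPKM in Flt3+/+ MSC replicates 1 to 5 and 9.34, 23.37, 19.67, 15.93 and 16.0 in the Flt3ITD/ITD replicates. MNCs reached 0.21 RPKM, under every MSC library. ECs were at 0.08 to 0.63 RPKM except for Flt3+/+ replicate 1, at 7.52, which lay within the MSC range. For MSCs against MNCs the log2 fold change was 6.22 ± 1.38 (adjusted p = 0.00314) and 6.90 ± 0.52 (adjusted p = 7.30e-07). That of ECs against MSCs was -2.14 ± 1.03 (adjusted p = 0.170) in Flt3+/+ and -6.62 ± 0.46 (adjusted p = 7.68e-07) in Flt3ITD/ITD mice.

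The other inhibitors were low. Dkk1, the best studied Dickkopf inhibitor of Lrp6, had counts in every library, at 0.15 to 0.72 RPKM in all 3 populations. Dkk4 was over 3 counts in Flt3+/+ EC replicates 2 and 5 and Flt3ITD/ITD EC replicate 5, at 0.30, 0.16 and 0.56 RPKM, and at most 0.02 elsewhere. Sfrp5 was at 1.56 RPKM in Flt3+/+ EC replicate 4, 1.22 in Flt3+/+ MSC replicate 3 and 1.77 in Flt3ITD/ITD MSC replicate 5, and at most 0.09 in the other 25 libraries.

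Traces of MSC inhibitors in ECs were set beside the bone-forming list, with which they did not go in every library, and the smooth muscle and pericyte list. Flt3+/+ EC replicate 1, with 7.52 RPKM of Dkk2, 4.08 of Sfrp4 and 0.34 of Wif1, had a bone-forming sum of 52.4 RPKM, the highest of the Flt3+/+ ECs (lowest 5.61), and an erythroid sum of 4204 (lowest 43.6). Flt3ITD/ITD EC replicate 5, with 0.66 RPKM of Wif1, 0.19 of Wnt11 and 2.9 of Wnt5b, had a bone-forming sum of 430 RPKM, against 17.99 in the lowest of the Flt3ITD/ITD ECs. Flt3+/+ EC replicate 4, with 1.56 RPKM of Sfrp5, had the lowest bone-forming sum of the ECs, and Flt3ITD/ITD EC replicate 1, with 1.73 of Sfrp4, had 30.1 RPKM. Flt3ITD/ITD EC replicates 2 and 3 had sums of 101 and 88.0 RPKM with at most 0.13 of Sfrp4 and 0.02 of Wif1. The smooth muscle and pericyte list (6 genes) was highest in the EC library with the most Sfrp4 of each genotype. It summed to 1010 RPKM in Flt3+/+ EC replicate 1, against 274 to 543 in the other Flt3+/+ ECs. In Flt3ITD/ITD EC replicate 1 it summed to 1182 RPKM, against 153 to 740 in the other Flt3ITD/ITD ECs. MSC libraries reached 172 RPKM. Flt3+/+ EC replicate 4, with the Sfrp5, was within the range of the others at 428 RPKM. The part of other cells in these values was not tested.

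**Figure D4:**
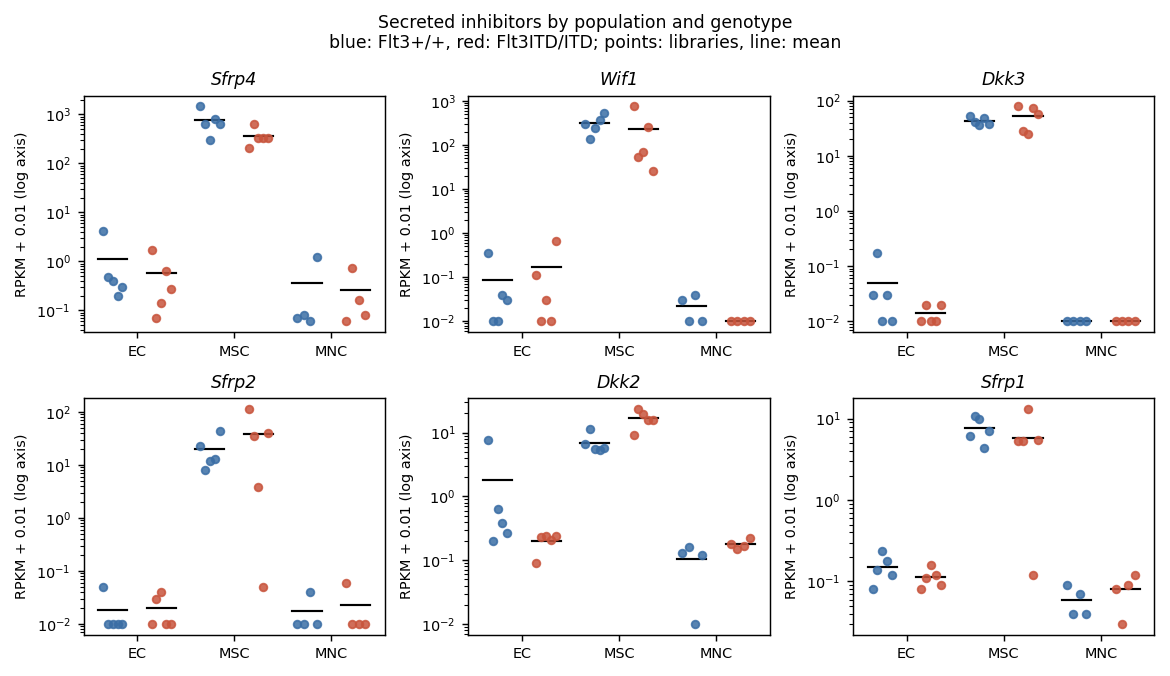
Levels of Sfrp4, Wif1, Dkk3, Sfrp2, Dkk2 and Sfrp1, as RPKM + 0.01 on a log axis, by population (horizontal axis) and genotype (blue, Flt3+/+; red, Flt3ITD/ITD). Points are libraries and lines are group means; Sfrp4, Wif1 and Dkk3 of MSCs lie above all points of the other populations, and Sfrp2 and Sfrp1 each have 1 MSC point, Flt3ITD/ITD replicate 4, at the EC level.

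Upstream sequences of the genes that were high together in MSCs (Dkk2, Wnt11, Sfrp2) and of the EC gene Fzd4 are shown as examples of members with calls in both genotypes that had a window. Each is the 250 bases before the start in RefSeq GRCm38.p6, 5′ to 3′ on the gene's plus strand, with 2 motifs in capitals. One is the letters TATAAA, those of a box near many starts. The other is TCAAAG, which on the opposite strand reads as the core of the site for TCF and LEF factors, CTTTGA.
Dkk2, chr3:132085042-132085291: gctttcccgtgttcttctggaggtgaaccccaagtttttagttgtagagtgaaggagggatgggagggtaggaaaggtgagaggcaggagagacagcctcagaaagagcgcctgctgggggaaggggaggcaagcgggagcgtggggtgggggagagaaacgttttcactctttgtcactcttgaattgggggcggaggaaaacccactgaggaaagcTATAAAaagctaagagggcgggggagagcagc
Wnt11, chr7:98834862-98835111: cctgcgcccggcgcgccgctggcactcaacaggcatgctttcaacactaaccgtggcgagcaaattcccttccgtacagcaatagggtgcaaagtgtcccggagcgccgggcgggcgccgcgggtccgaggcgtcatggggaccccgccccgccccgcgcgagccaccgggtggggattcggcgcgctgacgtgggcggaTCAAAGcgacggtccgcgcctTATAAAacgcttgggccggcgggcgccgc
Sfrp2, chr3:83766071-83766320: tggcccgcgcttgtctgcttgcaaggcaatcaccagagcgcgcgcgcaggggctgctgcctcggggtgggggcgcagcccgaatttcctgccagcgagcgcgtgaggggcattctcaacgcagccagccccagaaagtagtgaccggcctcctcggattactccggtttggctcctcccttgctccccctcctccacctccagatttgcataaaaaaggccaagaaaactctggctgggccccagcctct
Fzd4, chr7:89404116-89404365: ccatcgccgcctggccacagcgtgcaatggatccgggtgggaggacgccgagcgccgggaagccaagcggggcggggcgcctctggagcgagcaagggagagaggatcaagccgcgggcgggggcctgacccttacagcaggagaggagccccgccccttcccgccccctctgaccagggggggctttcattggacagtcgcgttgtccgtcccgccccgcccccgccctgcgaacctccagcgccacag

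TATAAA began at -32 from the start of Dkk2 and at -29 from that of Wnt11, where TCAAAG stood at -50. Neither motif was in the windows of Sfrp2 and Fzd4, or in that of a second start of Wnt11 (chr7:98838595-98838844). Over all members, 26 of 40 had a window that was used, with 29 windows. Windows of members on chromosome 18 (Fzd8 and Wnt8a) were not used, a limit not set for the windows of all genes. CTTTGA on either strand was in 4 windows (13.8%), as in 13.8% of all 32817 windows of that length, and TATAAA on either strand in 5 (17.2%), against 12.4% of all. The median GC content was 68.0% in the members' windows and 52.4% in all. A match describes letters in a window, and the absence of a match says nothing on the factor.

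Other genes of the Wnt pathway were taken from 7 lists of 77 symbols, 73 of which were in the data. Called in both genotypes were 4 of the 73 higher and 7 lower in ECs than in MSCs (6.79% and 7.05% of all genes tested in both were), 14 higher and 3 lower in ECs than in MNCs (14.4% and 10.2%), and 17 higher and 1 lower in MSCs than in MNCs (14.4% and 10.6%). Frzb, a further secreted Frizzled-related protein, was at 19.6 ± 10.6 and 19.7 ± 26.4 RPKM (SD) in the MSCs of the 2 genotypes, at most 0.02 in ECs and MNCs. Wisp2, an extracellular protein listed with the target genes, was at 50.1 ± 20.6 and 52.0 ± 25.0 RPKM in MSCs, with log2 fold changes of ECs against MSCs of -8.61 ± 1.28 (adjusted p = 0.000289) and -9.78 ± 1.86 (adjusted p = 0.00247). Nkd2, a feedback inhibitor that binds Dishevelled, followed with -7.21 ± 1.83 (adjusted p = 0.0130) and -8.19 ± 1.26 (adjusted p = 0.000540).

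Rspo3, an agonist that binds Lgr receptors, was at 3.77 ± 7.0 and 3.31 ± 4.13 RPKM in MSCs, carried by few of their libraries, with at most 0.02 in MNCs (adjusted p = 0.00627 and 0.0278). Dkkl1, a Dickkopf-like protein, had no count in any MSC library and was at 2.27 ± 1.15 and 3.42 ± 2.10 RPKM in MNCs (adjusted p = 0.00281 and 0.0298). It was also called higher in ECs than in MSCs (adjusted p = 0.0509 and 0.0578), on at most 9 counts in a Flt3+/+ EC library, and in Flt3ITD/ITD ECs (mean 1.49 RPKM) on 1 library at 7.41 RPKM that held nearly all of it.

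In ECs against MNCs the 4 genes called in both genotypes with the largest mean of the 2 log2 fold changes were Prickle2, Tcf7l1, Prickle1 and Porcn. Prickle2 and Prickle1, both of the polarity branch, had log2 fold changes of 5.92 ± 1.5 and 6.21 ± 1.38 in Flt3+/+ mice (adjusted p = 0.00778 and 0.00346) and 9.84 ± 1.37 and 8.54 ± 1.37 in Flt3ITD/ITD mice (adjusted p = 0.000147 and 0.000434). Tcf7l1, a nuclear partner of β-catenin, had 6.80 ± 1.49 (adjusted p = 0.00309) and 8.32 ± 1.05 (adjusted p = 6.68e-05). Porcn, which adds the lipid that Wnt proteins need for secretion, was at 4.30 ± 5.76 and 4.26 ± 9.44 RPKM in ECs and at most 0.11 in MNCs (adjusted p = 0.00988 and 0.0951), with 21.15 RPKM in 1 Flt3ITD/ITD EC library that carried nearly all of that mean.

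Flt3ITD/ITD mice were compared with Flt3+/+ mice within each population, to ask whether the niche changed its Wnt signals with the mutation. By edgeR 0 members were called: 12 were tested in ECs (0.00810% of all genes were called), 25 in MSCs (0.0295%) and 8 in MNCs (0.0144%). An unadjusted p below 0.05 was found for 3, 3 and 0 of them, and for 4.99%, 4.24% and 10.4% of all genes. With limma on log2(RPKM + 1) or log2(RPKM + 0.1), and with edgeR without the filter, 0 were called as well. DESeq2 called 2 of 32 members with a p-value in ECs (1.67% of all genes), 1 of 33 in MSCs (1.01%) and 0 of 34 in MNCs (1.43%). Called by either tool, the rule of the study's methods, were thus Fzd1 and Fzd3 in ECs and Dkk2 in MSCs. Over all genes edgeR called 1, 4 and 2 and DESeq2 362, 197 and 322 in ECs, MSCs and MNCs. The 0 of edgeR therefore does not show unchanged levels of the members. The genotype effect differed between the populations for 0 of 27 members in edgeR's interaction test (0.0296% of all genes). An unadjusted p below 0.05 was found for 7 of the 27, beside 9.95% of all genes. DESeq2 called 3 of 39 members with a p-value for the interaction (1.63% of all genes), which were Dkk2, Fzd1 and Fzd3. Their adjusted p was 0.00814, 0.0342 and 0.0692 by DESeq2, and 0.188, 0.225 and 0.284 by edgeR.

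Dkk2 in MSCs, whose values stand above, had 4 of 5 Flt3ITD/ITD libraries over the highest Flt3+/+ library and the fifth, at 9.34 RPKM, under it. The means were 16.9 and 6.87 RPKM. The log2 fold change was 1.36 ± 0.33 with an adjusted p of 0.999 by edgeR, and 1.37 with an adjusted p of 0.00386 by DESeq2, so that the call rested on the tool. Sfrp4 went the other way in MSCs, with a log2 fold change of -1.01 ± 0.40 (adjusted p = 0.999), and 4 of 5 Flt3ITD/ITD values lay within the Flt3+/+ range while replicate 1 lay under it. Fzd10 was at 0.29, 0.46, 0.23, 1.35 and 0.47 RPKM in Flt3+/+ and 0, 0, 0.13, 0.26 and 0.03 in Flt3ITD/ITD MSCs (-2.59 ± 1.17; adjusted p = 0.999). Flt3ITD/ITD MSCs had a bone-forming sum of 1377 to 6649 RPKM and Flt3+/+ MSCs of 3597 to 9209, and the part of this in the genotype values was not tested.

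In ECs the smallest p-values were those of Dkk2, Fzd1 and Fzd3, each at an adjusted p of 0.927 by edgeR. Dkk2 (-3.17 ± 1.10) rested on Flt3+/+ EC replicate 1, at 7.52 RPKM, and Fzd1 (-5.78 ± 2.02) on Flt3+/+ EC replicates 3 and 4. Fzd3 (2.32 ± 0.81) was above the Flt3+/+ range in Flt3ITD/ITD EC replicates 1, 2 and 3 and within it in replicates 4 and 5. DESeq2 called Fzd1 (-5.88; adjusted p = 0.0513) and Fzd3 (2.32; adjusted p = 0.0691). The leading EC receptors had log2 fold changes of 0.55 ± 0.61 (Fzd4) and -0.03 ± 0.47 (Fzd6), and Wnt4 of 0.10 ± 0.47 in ECs and 0.18 ± 0.51 in MSCs.

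Of the 8 members tested by edgeR in MNCs, the smallest p-values were those of Lrp5, Dkk2 and Fzd5. Their log2 fold changes were 1.06 ± 0.71, 0.66 ± 0.71 and 0.77 ± 1.15 (adjusted p = 0.624, 0.779 and 0.851). Dkk2 measured 0.12, 0.15, 0 and 0.11 RPKM in Flt3+/+ and 0.17, 0.14, 0.16 and 0.21 in Flt3ITD/ITD MNCs, on 0 to 13 counts per library. Fzd5 measured 0.36, 0.02, 0.04 and 0.08 RPKM in the former and 0.20, 0.44, 0.01 and 0.26 in the latter. The genotypes overlapped for all 3 genes. Of the 73 other pathway genes, 0 were called by edgeR in any population, with 0, 5 and 3 at an unadjusted p below 0.05 of 43, 59 and 44 tested, beside the same shares of all genes as for the members (4.99%, 4.24% and 10.4%).

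**Figure D5:**
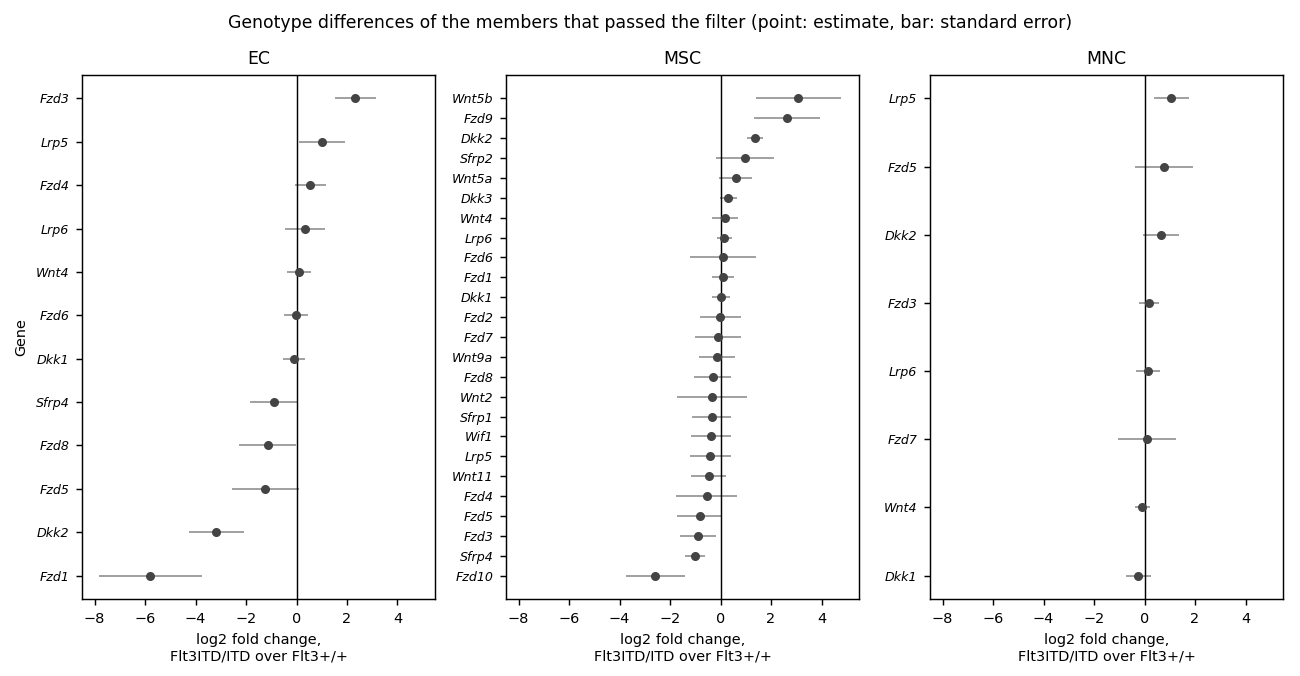
Log2 fold change of Flt3ITD/ITD over Flt3+/+ (horizontal axis) for each member that passed the filter in ECs (12 genes), MSCs (25) and MNCs (8), with points for estimates and bars for standard errors. Fzd1 and Dkk2 lie lowest and Fzd3 highest in ECs, Dkk2 of MSCs (1.36) has a short bar, and none was called by edgeR.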

How the data were processed

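RNA was measured in 28 libraries, assigned to population, genotype and replicate from their labels. The authors mapped single-end reads with Bowtie (mm10), dropped those that mapped to several places, and deposited the estimated counts per gene that RSEM gave, in whole numbers and not normalized; tool versions are not given in the sources used here. They also deposited an RPKM value, with 2 decimals, beside each count. The amplified libraries do not keep strand, and reads carry no molecular identifiers, so that counts include copies made by PCR. Depth was 6377013 to 33880743 counts per library, and 3 counts per library were taken as the floor.

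Members were all genes whose symbols are those of the Wnt, Fzd, Sfrp and Dkk families, Lrp5, Lrp6 and Wif1. The members and all lists of genes and markers were chosen with earlier results of these data known. Each test ran over all genes in R 4.3.3 with the quasi-likelihood test of edgeR 4.0.16 (TMM, its filter on low counts) and Benjamini-Hochberg adjustment: the 3 populations of a genotype in 1 fit, the genotypes of a population in another, and the interaction over all 28 libraries. A gene was called at adjusted p below 0.1 and a ratio of mean RPKM of at least 2-fold; the study's methods use the same limits but take the adjusted p from either DESeq2 or edgeR. The interaction used the adjusted p alone. Ratios to groups with 1 to 3 counts carry the exact Poisson interval (95%) of those counts, and folds against groups at 0 use the floor. Alternatives were DESeq2 1.42.0, limma 3.58.1 on log2(RPKM + 1) or log2(RPKM + 0.1) (mean RPKM 0.1 or more), no filter, DESeq2's size factors in edgeR, a stricter adjusted p of 0.05, no fold rule, the replicate number as a block, all 28 libraries in 1 fit, and each library left out. The tests were also run on simulated counts. These were drawn from the spread that edgeR itself had fitted, so that they cannot check its model against the data.

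Values of single libraries are given for the 4 highest members of each population, for members called in both genotypes and for the 3 smallest p-values of each genotype comparison; others named were chosen after their values were seen. Gene positions are from GENCODE vM21 (GRCm38) and promoter windows from RefSeq (GRCm38.p6). Summaries were made in Python 3.11.15 with pandas 2.3.3. Nothing in the labels says that libraries with the same replicate number came from the same mouse. Protein sequences were not used here.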

Additional observations from a re-analysis of the deposited data

Results flagged for a closer look

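Groups of 4 or 5 libraries were examined where the highest library of a member reached 1 RPKM. Of 81 such groups over the 40 genes, 22 (27.2%) held a library whose gap to the others was above Dixon's 95% critical value. Chance marks about 1 in 20 groups of normally distributed values, but these groups were entered because a library was high, so that this is not the chance rate for them.

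In Flt3+/+ ECs they were Dkk2 and Sfrp4 in replicate 1 (7.52 RPKM against 0.19 to 0.63, and 4.08 against 0.19 to 0.48), Wnt9a in replicate 2 (3.34 against 0 to 0.16), Fzd1 in replicate 3 (14.03 against 0.08 to 4.04), Wnt5a and Sfrp5 in replicate 4 (6.82 against 0 to 0.01, and 1.56 against 0) and Fzd7 in replicate 5 (3.58 against 0.04 to 0.26). Each of the 5 Flt3+/+ EC libraries thus had a high member of its own. In Flt3ITD/ITD ECs they were Lrp5 in replicate 3 (8.58 RPKM against 0.35 to 1.89) and, in replicate 5, Fzd5 (2.79 against 0.02 to 0.69) and Wnt5b (2.9 against 0 to 0.06).

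In Flt3+/+ MSCs they were Dkk2 in replicate 2 (11.27 RPKM against 5.31 to 6.55), Wnt5a and Sfrp5 in replicate 3 (4.85 against 1.88 to 2.41, and 1.22 against 0 to 0.09) and Fzd10 and Fzd9 in replicate 4 (1.35 against 0.23 to 0.47, and 1.75 against 0 to 0.39). In Flt3ITD/ITD MSCs they were Wnt5a and Fzd9 in replicate 1 (10.94 against 1.29 to 2.79, and 8.64 against 0.27 to 2.55) and Wnt5b in replicate 4 (6.47 against 0 to 0.91). In replicate 5, the MSC library with the highest leukocyte sum and the fewest counts, they were Sfrp5 (1.77 against 0), Wnt1 (1.29 against 0 to 0.03) and Wnt10b (1.45 against 0 to 0.1). In MNCs it was Sfrp4 in Flt3+/+ replicate 4 (1.24 RPKM against 0.05 to 0.07).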

How the results depend on the processing

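Members called the same way in both genotypes kept that direction in every alternative run that gave them an adjusted p. Calls made in only 1 genotype were not checked for direction. For ECs against MNCs in Flt3+/+ mice, the 14 members called became 5 with limma on log2(RPKM + 1), 8 with limma on log2(RPKM + 0.1), 6 at an adjusted p below 0.05 and 8 with the replicate number as a block, and 7 to 15 with 1 library left out. For ECs against MSCs in Flt3+/+ mice the 10 became 16 and 18 with limma on these 2 scales, and 8 to 12 with 1 library left out. DESeq2 called 2 members for genotype in ECs, 1 in MSCs and 3 for the interaction, where edgeR called 0. The cause of these changes was not tested. With 1 library left out, the counts were 16 to 20 for MSCs against MNCs in Flt3+/+ mice, 13 to 18, 5 to 8 and 14 to 18 for the 3 comparisons in Flt3ITD/ITD mice (17, 7 and 17 with all), 0 for each genotype comparison and the interaction, and 26 to 32 for the other pathway genes (29). Without Flt3ITD/ITD EC replicate 2, which carried leukocyte transcripts, the 3 counts of Flt3ITD/ITD mice were 16, 8 and 18, and without MSC replicate 5 they were 15, 6 and 15.

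Of the named log2 fold changes, those whose call was lost with another library left out are given with the genes. Fzd3 in Flt3+/+ and Lrp5 in Flt3ITD/ITD mice (ECs against MNCs) also lost a call without the filter, as did Wnt4 there in Flt3ITD/ITD mice, and the first 2 with DESeq2's size factors, which moved the median log2 fold change of all genes by -0.10 for ECs against MNCs in Flt3ITD/ITD mice; limma on log2(RPKM + 1) moved it by -0.29 to 0.15 in 4 comparisons. The deviations of same-numbered libraries from their group means were weakly correlated (-0.08 to 0.09). Between the MSCs of the 2 genotypes all 5 correlations were positive (0.035 to 0.095), and 4 of 5 libraries went best with their own number. Between the ECs of the 2 genotypes 3 of 5 did, and in the other pairs of groups at most 1 did. With the replicate number as a block, 5 of 69 named changes lost their call. Ligands at under 3 counts were not detectable at this depth.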

Other observations

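Wnt4 and Dkk1 varied less over the 28 libraries than most genes of like level. The coefficient of variation of Wnt4 was 43.4%, and 2.63% of the 4143 genes within 2-fold of its mean had a lower one (their median was 124%). That of Dkk1 was 44.4%, with 1.13% of 2754 genes lower (median 210%), whereas Lrp6, at 76.7%, was near its median of 80.3%.

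The neighbours Wnt1 and Wnt10b, 11706 bases apart on chromosome 15 and read from opposite strands, were both found almost only in MSC libraries. Wnt10b was over 3 counts in 3 of 5 Flt3+/+ and 2 of 5 Flt3ITD/ITD MSC libraries, so that some overlap with Wnt1 is due among MSCs alone. Wnt1 was over 3 counts in 3 of 28 libraries, and all 3 (Flt3+/+ MSC replicates 2 and 5 and Flt3ITD/ITD MSC replicate 5) were among the 6 with Wnt10b over 3 counts. The neighbours Wnt3a and Wnt9a, 16175 bases apart on chromosome 11, were over 3 counts in 0 and 13 libraries. The other pairs within 100000 bases were Wnt10a with Wnt6 (1 and 2 libraries, 0 shared) and Wnt3 with Wnt9b (1 and 0). Whether neighbours went together was not tested.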
